A study of Mus musculus with 17 samples.

Results

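The 9 genes described here are those of the myelin sheath and of the cells that make it: Mbp, Mobp, Cnp, Cldn11, Mag and Mog, which encode proteins of the sheath, Olig1 and Olig2, which encode transcription factors of the oligodendrocyte lineage, and Pdgfra, which encodes the growth factor receptor of its progenitors. They were taken by symbol from the 56953 genes of the deposited count table, all 9 were found, and all 9 passed the filter on low counts that left 23062 genes for the tests. RNA came from the prefrontal cortex of mice that the labels give as 8 months old, on the B6C3F1/J background, with 5 WT libraries, 6 PS19 libraries and 6 CgA-KO/PS19 libraries. PS19 mice (hTau in the sample titles) express human P301S Tau from a transgene that the Prnp promoter drives. CgA-KO/PS19 mice have this transgene as well, on a background deleted for Chga, the gene of chromogranin A. The paper states that the knockout line began on a mixed strain background and was backcrossed before the cross to PS19. The study asks how the loss of chromogranin A acts in this tauopathy model. CgA-KO mice without the transgene are not among the libraries, so the knockout was compared within the transgene only.

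Oligodendrocytes wrap axons of the central nervous system in compacted membrane, which speeds conduction and feeds the axon. The lineage starts from progenitors that divide under platelet-derived growth factor, read by Pdgfra, and that keep Olig1 and Olig2 on. On differentiation Pdgfra is switched off, and the sheath proteins are made in large amounts: Mbp and Mobp hold the cytoplasmic faces of the membrane together, Cnp keeps channels of cytoplasm open between them, Cldn11 forms the tight junctions between the layers, Mag sits on the face next to the axon and Mog on the outermost face.

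Levels are given as CPM, the usual count scaled to a common library size, with library sizes corrected by TMM (trimmed mean of M values). Libraries held 8838334 to 227651681 counts, and the shallowest, WT replicate 4, still held at least 126 counts for each of the 9 genes. Among counts of 1 to 9, those of 3 and of 6 were more frequent than their neighbours in all 17 libraries, so the totals may overstate the number of fragments. Chga was at 0 counts in all 6 CgA-KO/PS19 libraries and at 151.7 to 180.1 CPM in the other 11. Some libraries stood apart in ways that touch the results below. The share of mitochondrial counts was 13.8% to 18.2% in CgA-KO/PS19 replicates 1 to 3, 10.9% in replicate 6, 6.63% in replicate 5, 7.94% in WT replicate 4 and 2.56% to 4.59% in the rest. The Y-linked gene Ddx3y reached 49.8 to 76.8 CPM in replicates 1 to 3 of every genotype and no more than 0.0582 CPM in the others. The study used males and females of each genotype, and the sex is not given beside each library. The summed level of 15 markers of the striatum, a region below the cortex that is rich in myelinated fibres, was 1279 to 3877 CPM in WT, 301 to 348 CPM in PS19, 2382, 614 and 2422 CPM in CgA-KO/PS19 replicates 1, 2 and 3, and 292 to 314 CPM in replicates 4 to 6. Of the 15 markers, only Isl1 and Lhx8 were at 0 in all 6 PS19 libraries. WT replicate 4 and CgA-KO/PS19 replicate 6 were low in GC-rich genes: the genes with the highest GC content (the top 25%) had a median log2 deviation from the mean of all libraries of -0.49 and -0.39 there, against -0.22 to 0.16 in the other 15. PS19 replicates 4, 5 and 6 were near-identical to one another, with a robust SD of the log2 ratio of 0.0523 to 0.0607 over 3761 well-counted genes. CgA-KO/PS19 replicates 1 and 3 were the next closest pair of a genotype, with 0.098. The study's Methods give n as biological replicates, while the labels do not say which mouse each library came from, so the p-values measure the spread between these libraries.

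**Figure D1:**
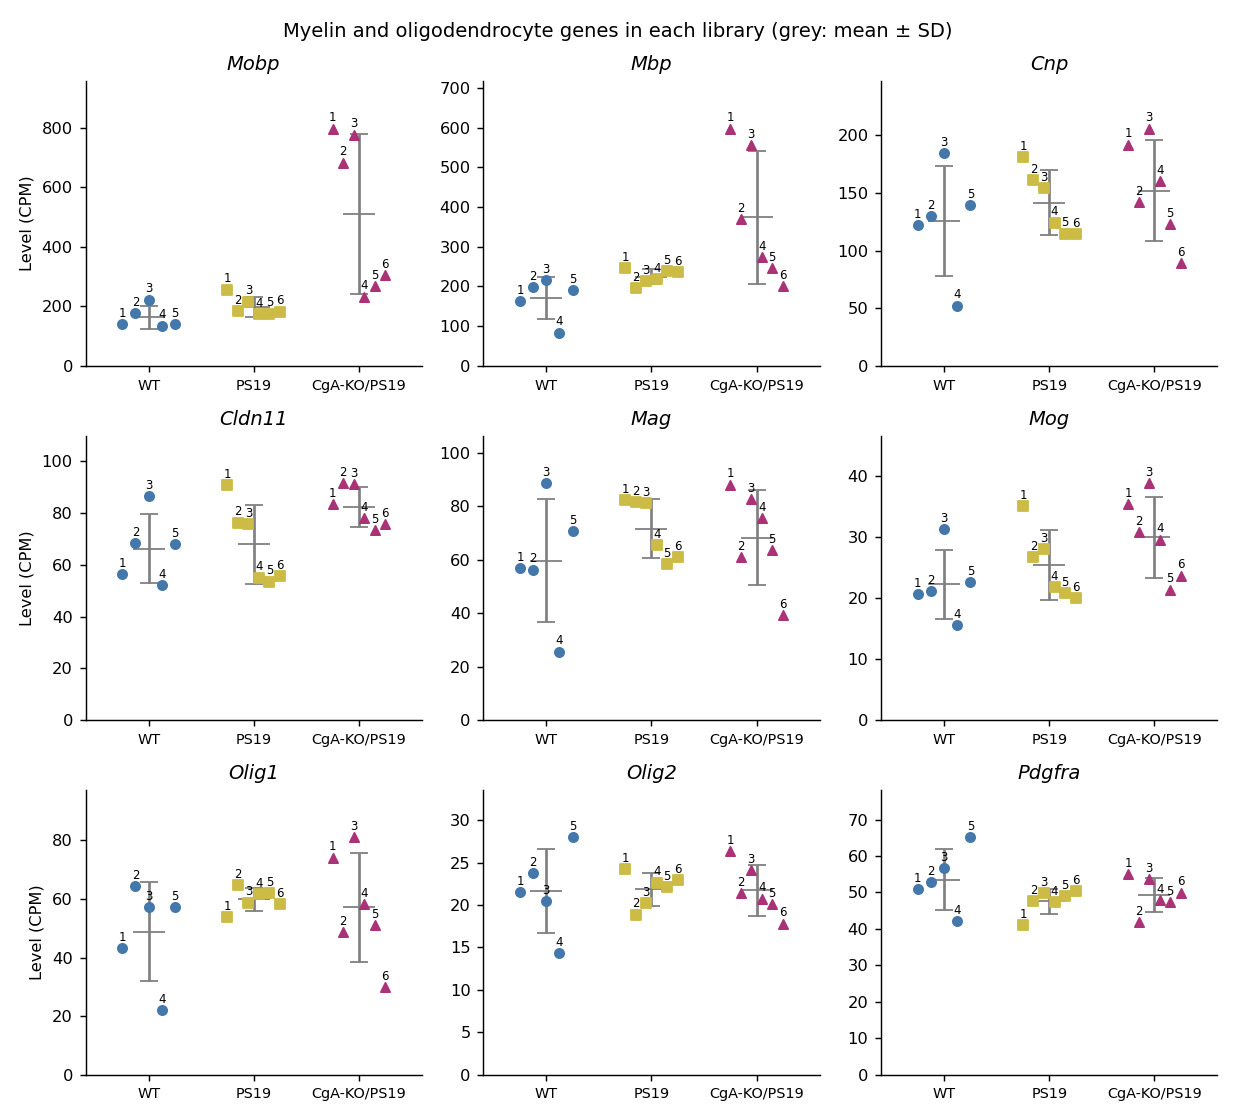
Level of each of the 9 genes (CPM) in every library, by genotype, with the replicate number beside each point and the mean ± SD in grey. Mobp and Mbp stood highest in CgA-KO/PS19 replicates 1 to 3, and the other 7 genes had overlapping levels in the 3 genotypes.

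All 6 sheath genes, both lineage factors and Pdgfra were counted in all 17 libraries. In bulk tissue, fewer cells of a type and less RNA per cell cannot be told apart. To compare genes with one another, mean CPM was divided by the length in kb of all annotated exons together. That length was 8469 bases for Mbp and 6849 for Mobp, whose longest transcripts have 4797 and 3286 bases. For Cldn11 and Olig1 both lengths are the same, 1870 and 2162 bases. The order that follows therefore depends on the length used. In PS19, the order was Cnp (39.0 ± 7.64 CPM per kb, SD, n = 6), Cldn11 (36.3 ± 8.19), Mobp (28.9 ± 4.71), Olig1 (27.7 ± 1.79), Mbp (26.5 ± 2.23), Mag (17.6 ± 2.74), Mog (14.9 ± 3.36), Olig2 (8.63 ± 0.772) and Pdgfra (4.75 ± 0.338). The ranges of mean ± SD of neighbours in this order did not touch between Mbp and Mag, between Mog and Olig2, and between Olig2 and Pdgfra, and overlapped at the other 5 steps. In WT, Cldn11 led with 35.4 ± 7.14 CPM per kb (SD, n = 5), Cnp followed with 34.6 ± 13.1, and only the last step, from Olig2 to Pdgfra, was free of overlap. With this length as the divisor, the order changed at the top in CgA-KO/PS19. There Mobp (74.5 ± 39.3 CPM per kb, SD, n = 6) and Mbp (44.1 ± 19.8) came first, with overlap between all neighbours down to Mag. Olig2 and Pdgfra held the last 2 places in each genotype.

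Mobp (ENSMUSG00000032517, chromosome 9, 120149707 to 120181484, plus strand, in GENCODE M21 on GRCm38) encodes a small, basic protein of compact myelin. Its level was 139.5, 176.9, 222.8, 135.4 and 139.4 CPM in the 5 WT libraries. In the 6 PS19 libraries it was 255.9, 184.8, 216.1, 173.7, 175.5 and 182.4 CPM. The 6 CgA-KO/PS19 libraries held 797.2, 682.7, 776.5, 232.8, 267.5 and 304.1 CPM. Every CgA-KO/PS19 library was thus above every WT library, and replicate 4 alone was below a PS19 library, replicate 1 of that genotype. Mobp rose 2.58-fold in CgA-KO/PS19 against PS19 (log2 fold change 1.37, SE 0.28, FDR = 0.00842 by edgeR's quasi-likelihood test) and 3.13-fold against WT (1.65, SE 0.30, FDR = 0.00504). It remained past the threshold of FDR = 0.05 with each library left out in turn, with an FDR of up to 0.0242 against PS19 and up to 0.0201 against WT. Without CgA-KO/PS19 replicates 1 to 3, the log2 fold change was 0.43 against PS19 (FDR = 0.201) and 0.72 against WT (FDR = 0.0309). With PS19 replicates 4 to 6 averaged to 1 library and CgA-KO/PS19 replicates 1 and 3 to another, it was 1.12 against PS19 (edgeR FDR = 0.117), no longer called, and the call against WT remained (FDR = 0.0255).

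The promoter of Mobp is printed beside those of Cnp and Mag, since the levels of Cnp and Mag followed each other most closely while Mobp departed from both. The windows run from 250 bases before to 50 after the RefSeq start on GRCm38.p6, in the direction of the gene. They are chr9:120149492-120149791 (plus strand) for Mobp, chr11:100574689-100574988 (plus strand) for Cnp and chr7:30914814-30915113 (minus strand) for the first of the 3 listed Mag starts. Capitals mark matches on either strand to 7 motifs, which share no bases in these windows. They are the SOX motif ACAAAG, which 18.7% of the 32851 windows of this length hold (27025 genes), the MYRF motifs CTGGCAC, held by 5.01%, and CTGGTAC, held by 2.24%, the E-boxes CAGCTG, held by 16.3%, and CATATG, held by 3.91%, the SP1 motif GGGCGG, held by 35.7%, and the TATA box TATAAA, held by 13.6%.
Mobp: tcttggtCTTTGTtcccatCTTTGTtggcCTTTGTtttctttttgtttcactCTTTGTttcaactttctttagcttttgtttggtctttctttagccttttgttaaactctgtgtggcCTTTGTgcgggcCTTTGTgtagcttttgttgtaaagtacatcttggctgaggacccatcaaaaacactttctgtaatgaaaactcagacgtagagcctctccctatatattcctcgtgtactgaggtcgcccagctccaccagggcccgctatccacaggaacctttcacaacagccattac
Cnp: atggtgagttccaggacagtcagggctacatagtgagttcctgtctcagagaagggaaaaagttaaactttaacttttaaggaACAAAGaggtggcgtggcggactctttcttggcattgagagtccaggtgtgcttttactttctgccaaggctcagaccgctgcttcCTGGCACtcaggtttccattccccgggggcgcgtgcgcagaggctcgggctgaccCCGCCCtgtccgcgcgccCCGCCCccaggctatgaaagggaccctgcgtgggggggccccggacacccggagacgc
Mag: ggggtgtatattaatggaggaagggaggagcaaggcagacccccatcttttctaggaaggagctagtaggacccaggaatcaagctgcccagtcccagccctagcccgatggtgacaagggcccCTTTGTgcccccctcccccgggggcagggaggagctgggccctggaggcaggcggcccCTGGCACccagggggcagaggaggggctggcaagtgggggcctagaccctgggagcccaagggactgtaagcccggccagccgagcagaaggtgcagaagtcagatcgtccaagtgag
The Mobp window held 6 matches to the SOX motif, at -243, -231, -221, -198, -132 and -120 from the start, all on the strand opposite to the gene, where they read CTTTGT in the printed direction, and none to the other motifs. Of the 32851 windows, 1, that of Mobp, held 6 or more. The threshold of 6 is the count of Mobp itself, so at least 1 window had to reach it. The printed promoters were chosen after the levels were seen, and the part of these motifs in the levels was not tested. Cnp held 1 SOX match at -167, 1 MYRF match (CTGGCAC) at -81 and 2 SP1 matches at -26 and -8. Mag held 1 SOX match at -126 and 1 MYRF match (CTGGCAC) at -68. The GC content of the windows was 43.3% for Mobp, 59.7% for Cnp and 65.0% for Mag, against a median of 52.7%. Windows of 7 of the 9 genes were in the table, and those of Mbp and Olig1 were not used here. The Mog window held 1 MYRF match (CTGGTAC) at -83, the Cldn11 window 1 SP1 match at 5, the Olig2 window 2 SP1 matches at -60 and -53 and 1 match to TATAAA at -8, and the Pdgfra window no match to any of the motifs.

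Mbp (ENSMUSG00000041607, chromosome 18) encodes myelin basic protein, the main protein of the cytoplasmic faces of the sheath. In WT it was at 163.6, 197.4, 216.6, 83.5 and 191.4 CPM. In PS19 it was at 246.4, 195.9, 213.4, 218.1, 238.5 and 235.6 CPM, the narrowest spread of the 3 genotypes. In CgA-KO/PS19 it was at 597.7, 368.7, 556.6, 273.0, 246.3 and 200.1 CPM. Replicates 1 to 4 of CgA-KO/PS19 lay above all WT and PS19 libraries, and replicates 5 and 6 lay among them. The gene rose 2.19-fold in CgA-KO/PS19 against WT (log2 fold change 1.13, SE 0.27, FDR = 0.0191 by edgeR). Against PS19 the log2 fold change was 0.73 (SE 0.25, unadjusted p = 0.00947, edgeR FDR = 0.0708), which missed the FDR threshold and passed the one in the study's Methods (an absolute log2 fold change above 0.5 and p below 0.01 without adjustment). With WT replicate 4 or CgA-KO/PS19 replicate 4, 5 or 6 left out, that difference passed the FDR threshold too, with log2 fold changes of 0.73, 0.82, 0.83 and 0.86. Without CgA-KO/PS19 replicates 1 to 3 it was 0.08 against PS19 (FDR = 0.866) and 0.49 against WT (FDR = 0.261). With the closest libraries averaged as for Mobp, Mbp was called in neither comparison, at 0.58 against PS19 (edgeR FDR = 0.307) and 0.96 against WT (FDR = 0.0752).

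The other 4 sheath genes were not called in any comparison of the edgeR fit without covariates. Cnp (ENSMUSG00000006782, chromosome 11, 100574904 to 100591729, plus strand), the enzyme gene of the cytoplasmic channels, was at 122.5, 129.8, 184.5, 52.4 and 139.7 CPM in the WT libraries, at 114.7 to 181.2 CPM (median 139.4) in PS19 and at 89.3 to 206.1 CPM (median 151.3) in CgA-KO/PS19. Its lowest values in WT and CgA-KO/PS19 were those of replicates 4 and 6, the 2 libraries low in GC-rich genes, and the 3 genotypes overlapped. The log2 fold change was 0.10 (SE 0.24, edgeR FDR = 0.819) for CgA-KO/PS19 against PS19. Its locus overlaps Dnajc7 on the opposite strand, and whether counting used the strand is not given in the sources used here, so reads of that gene may be among its counts. Mag (ENSMUSG00000036634, chromosome 7, 30899176 to 30914873, minus strand), the adhesion protein next to the axon, was at 56.9, 56.3, 88.6, 25.7 and 70.7 CPM in WT, at 58.5 to 82.2 CPM (median 73.4) in PS19 and at 39.2 to 88.0 CPM (median 69.5) in CgA-KO/PS19. As for Cnp, WT replicate 4 and CgA-KO/PS19 replicate 6 were lowest. The log2 fold change was -0.07 (SE 0.23, edgeR FDR = 0.879) for CgA-KO/PS19 against PS19.

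Mog (ENSMUSG00000076439, chromosome 17, 37010743 to 37023398, minus strand), the glycoprotein of the outer face, was at 20.7, 21.2, 31.3, 15.6 and 22.6 CPM in WT, at 20.1 to 35.1 CPM (median 24.3) in PS19 and at 21.4 to 38.9 CPM (median 30.2) in CgA-KO/PS19. Against WT, CgA-KO/PS19 gave a log2 fold change of 0.42 (SE 0.19, unadjusted p = 0.0398, edgeR FDR = 0.202). Cldn11 (ENSMUSG00000037625, chromosome 3, 31149920 to 31164324, plus strand), the tight junction protein, was at 56.3, 68.3, 86.4, 52.01 and 67.9 CPM in WT, at 53.5 to 90.7 CPM (median 65.7) in PS19 and at 73.3 to 91.5 CPM (median 80.6) in CgA-KO/PS19. The lowest CgA-KO/PS19 library was above the PS19 median, yet both ranges overlapped. The log2 fold change of Cldn11 was 0.28 (SE 0.14, edgeR FDR = 0.217) for CgA-KO/PS19 against PS19, and 0.45 under limma voom, which called it (FDR = 0.0408). In PS19, replicates 1 to 3 were above replicates 4 to 6 for Cnp, Mag, Mog and Cldn11, and replicate 1 was the highest of the 6 for each.

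The lineage factors and the progenitor receptor were likewise not called in any comparison of the edgeR fit without covariates. Olig1 (ENSMUSG00000046160, chromosome 16, 91269772 to 91271933, plus strand) was at 43.1, 64.5, 57.1, 22.01 and 57.1 CPM in WT, at 53.7 to 64.8 CPM (median 60.2) in PS19 and at 29.9 to 81.0 CPM (median 54.6) in CgA-KO/PS19. WT replicate 4 and CgA-KO/PS19 replicate 6 were again the lowest, and Olig1 had the highest transcript GC content of the 9 genes, 61.1%. WT replicate 4 was, however, the lowest WT library for all 9 genes, down to Pdgfra with the lowest GC content, 48.1%. CgA-KO/PS19 replicate 6 was the lowest of its genotype for Mbp and Olig2 as well, but not for Mobp, Cldn11, Mog and Pdgfra. Olig2 (ENSMUSG00000039830, chromosome 16, 91225457 to 91228677, plus strand) was at 21.6, 23.8, 20.5, 14.4 and 28.0 CPM in WT, at 18.9 to 24.2 CPM (median 22.4) in PS19 and at 17.8 to 26.3 CPM (median 21.1) in CgA-KO/PS19. Its 3 genotype means, 21.6 ± 4.97 (SD, n = 5), 21.8 ± 1.95 (n = 6) and 21.7 ± 3.02 CPM (n = 6), differed by less than any of their SDs. Pdgfra (ENSMUSG00000029231, chromosome 5, 75152292 to 75198215, plus strand) was at 50.9, 52.8, 56.6, 42.2 and 65.1 CPM in WT, at 41.1 to 50.4 CPM (median 48.3) in PS19 and at 42.0 to 55.1 CPM (median 48.9) in CgA-KO/PS19. The log2 fold change of Pdgfra was 0.17 (SE 0.10, edgeR FDR = 0.364) for WT against PS19 and 0.05 (SE 0.10, FDR = 0.777) for CgA-KO/PS19 against PS19.

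**Figure D2:**
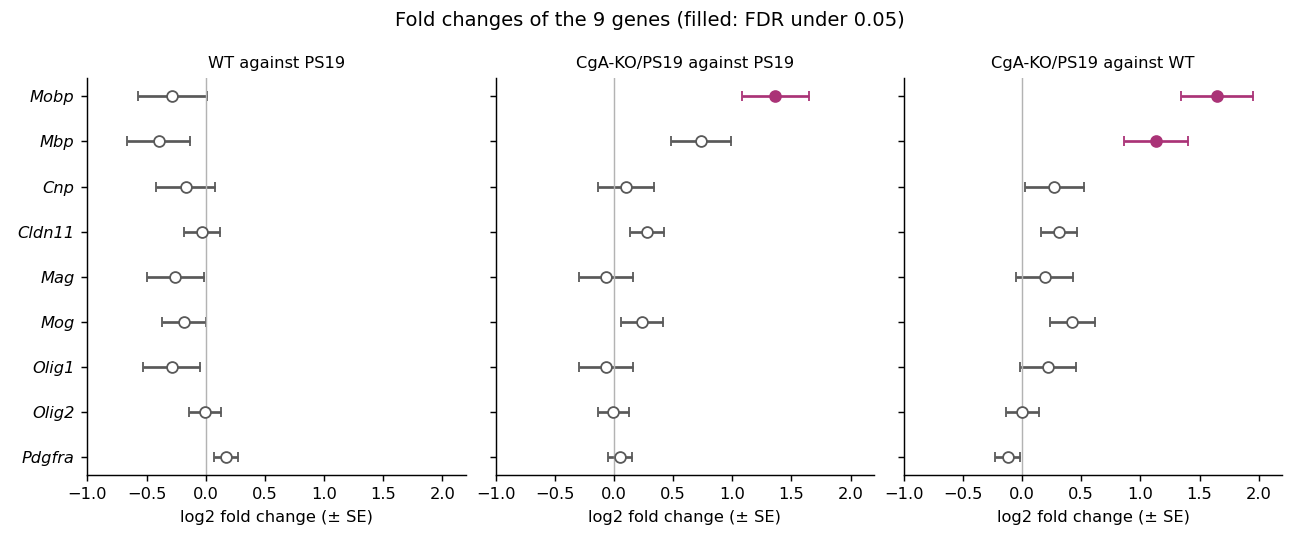
Log2 fold changes (± SE, edgeR) of the 9 genes in the 3 comparisons, with filled points for an FDR under 0.05. Mobp was filled in both comparisons of CgA-KO/PS19 and Mbp in that against WT, where their log2 fold changes were 1.65 and 1.13.

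Counted over the genes, 0 of 9 were called in WT against PS19 at an FDR under 0.05, where 5.9% of all genes tested were. The same 0 of 9 had an unadjusted p under 0.05 in edgeR, against 20.9% of all genes, and 0 of 9 were called by DESeq2 and by limma voom. None passed the Methods threshold there (7.39% of all genes) and none had WT and PS19 libraries that did not overlap (9.52% of all genes). In CgA-KO/PS19 against PS19, 1 of 9 was called (9.72% of all genes), 2 of 9 passed the Methods threshold (9.73%), and 0 of 9 had libraries that did not overlap (6.63%). In CgA-KO/PS19 against WT, 2 of 9 were called (6.46%), 2 of 9 passed the Methods threshold (7.75%), and 1 of 9, Mobp, had libraries that did not overlap (3.6%). The median log2 fold change of the 9 genes was -0.18 in WT against PS19, 0.10 in CgA-KO/PS19 against PS19 and 0.27 in CgA-KO/PS19 against WT, and that of all genes tested was -0.01, 0.03 and 0.01. The comparisons share libraries and are not independent of each other.

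The result for WT against PS19 changed with the striatal markers in the fit. With their mean level as a covariate, 6 of 9 genes were called, each lower in WT: Mbp (log2 fold change -1.61, edgeR FDR = 0.00249), Mobp (-1.58, FDR = 0.00308), Cnp (-1.02, FDR = 0.0476), Mag (-1.02, FDR = 0.0476), Mog (-0.84, FDR = 0.0261) and Olig1 (-1.06, FDR = 0.0289). Over all genes, 3875 of 23062 were called in the fit with this covariate, against 1361 without it. The ranges of the summed striatal markers in WT and PS19 do not touch, so the covariate fit compares the genotypes at marker levels that neither shares. Within WT, replicates 3 and 5, at 3877 and 3689 CPM of the markers, held 184.5 and 139.7 CPM of Cnp and 31.3 and 22.6 CPM of Mog, and replicates 1, 2 and 4, at 1279 to 1427 CPM, held 52.4 to 129.8 CPM of Cnp and 15.6 to 21.2 CPM of Mog. Mag and Pdgfra parted in the same way within WT. Mobp, Mbp, Cldn11 and Olig1 did not, since WT replicate 5 was below WT replicate 2 for each. The values were 139.4 against 176.9 CPM for Mobp and 191.4 against 197.4 CPM for Mbp. Olig2 was lower in WT replicate 3 than in WT replicates 1 and 2. Within CgA-KO/PS19, the 2 libraries richest in the markers, replicates 1 and 3, were also the 2 highest for each of the 9 genes but Cldn11. The part of the striatal markers in these levels was not tested beyond the covariate fit.

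**Figure D3:**
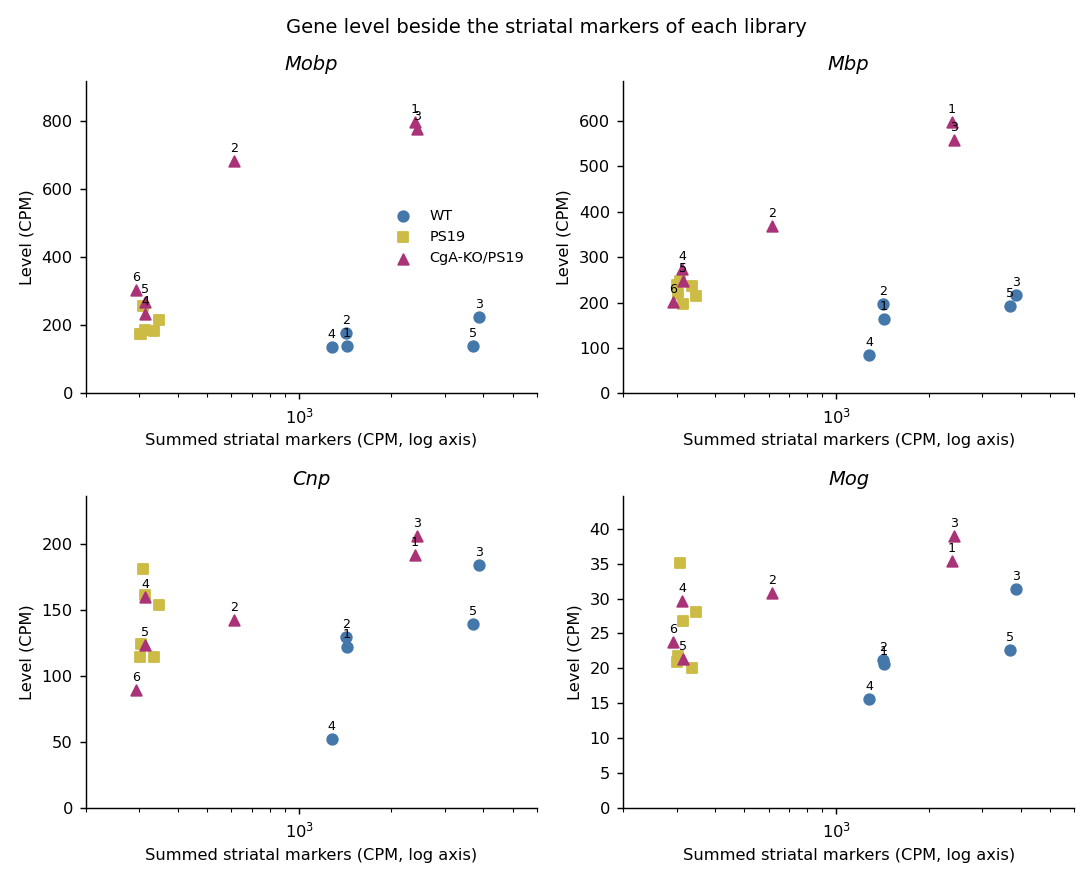
Level of Mobp, Mbp, Cnp and Mog (CPM) against the summed level of 15 striatal markers (CPM, log axis) in each library, with replicate numbers for WT and CgA-KO/PS19. CgA-KO/PS19 replicates 1 and 3, at 2382 and 2422 CPM of the markers, lay above all WT libraries for Mobp and Mbp. WT replicates 3 and 5 were the libraries with the most of the markers.

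The rise of Mobp and Mbp in CgA-KO/PS19 was unequal between the libraries. Among libraries with Ddx3y counts, replicates 1 to 3, the log2 fold change against PS19 was 1.80 for Mobp (edgeR FDR = 0.000384) and 1.23 for Mbp (FDR = 0.00187). Among those without, replicates 4 to 6, Mobp was at 232.8 to 304.1 CPM in CgA-KO/PS19 and at 173.7 to 182.4 CPM in PS19, without overlap, with a log2 fold change of 0.58 (unadjusted p = 0.000818 by edgeR, FDR = 0.0719), and the log2 fold change of Mbp was 0.04 (FDR = 0.965). The difference between both sets was itself past the threshold: 1.18 for Mobp (SE 0.22, edgeR interaction FDR = 0.00413) and 1.16 for Mbp (SE 0.35, FDR = 0.0428). Against WT it was 1.10 for Mobp (SE 0.23, FDR = 0.0153) and 0.60 for Mbp (SE 0.36, FDR = 0.374). The other 7 genes gave interaction FDRs of at least 0.292. These fits counted PS19 replicates 4 to 6, near-identical to one another, as separate libraries. They did the same with CgA-KO/PS19 replicates 1 and 3, the next closest pair, so the spread they used may be too small. The interaction was not refitted with these libraries averaged. Over all genes tested, 2687 of 23062 were called in this interaction against PS19. Among libraries with Ddx3y counts alone, 6713 of 21613 genes were called against PS19, and 190 of 23562 among those without. The CgA-KO/PS19 libraries with Ddx3y counts are the same 3 that hold the highest mitochondrial shares and striatal markers, so sex, mitochondrial share and striatal content cannot be told apart in that genotype.

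The mitochondrial share was highest in the same 3 CgA-KO/PS19 libraries that held the most Mobp and Mbp, and the order of libraries did not otherwise follow it throughout. In CgA-KO/PS19, the 3 libraries with 13.8% to 18.2% mitochondrial counts held 682.7 to 797.2 CPM of Mobp, and replicates 4, 5 and 6, with 3.84%, 6.63% and 10.9%, held 232.8, 267.5 and 304.1 CPM. Mbp did not follow that order, with 273.0, 246.3 and 200.1 CPM in replicates 4, 5 and 6. Replicate 2, with the highest share of all libraries, 18.2%, was the lowest of replicates 1 to 3 for both genes, and WT replicate 4, with the highest share of WT, 7.94%, was the lowest WT library for both, at 135.4 CPM of Mobp and 83.5 CPM of Mbp. Cnp and Mag were at 142.4 to 206.1 CPM and 60.8 to 88.0 CPM in the first 3. With the share as a covariate, the log2 fold change of Mobp was 0.41 against PS19 (SE 0.40, unadjusted p = 0.330 by edgeR) and 0.87 against WT (SE 0.36, FDR = 0.274), and that of Mbp 0.38 (SE 0.41, unadjusted p = 0.364) and 0.83 (SE 0.38, FDR = 0.326). Leaving out the mitochondrial genes before scaling left the values of Mobp at 1.37 and 1.65.

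**Figure D4:**
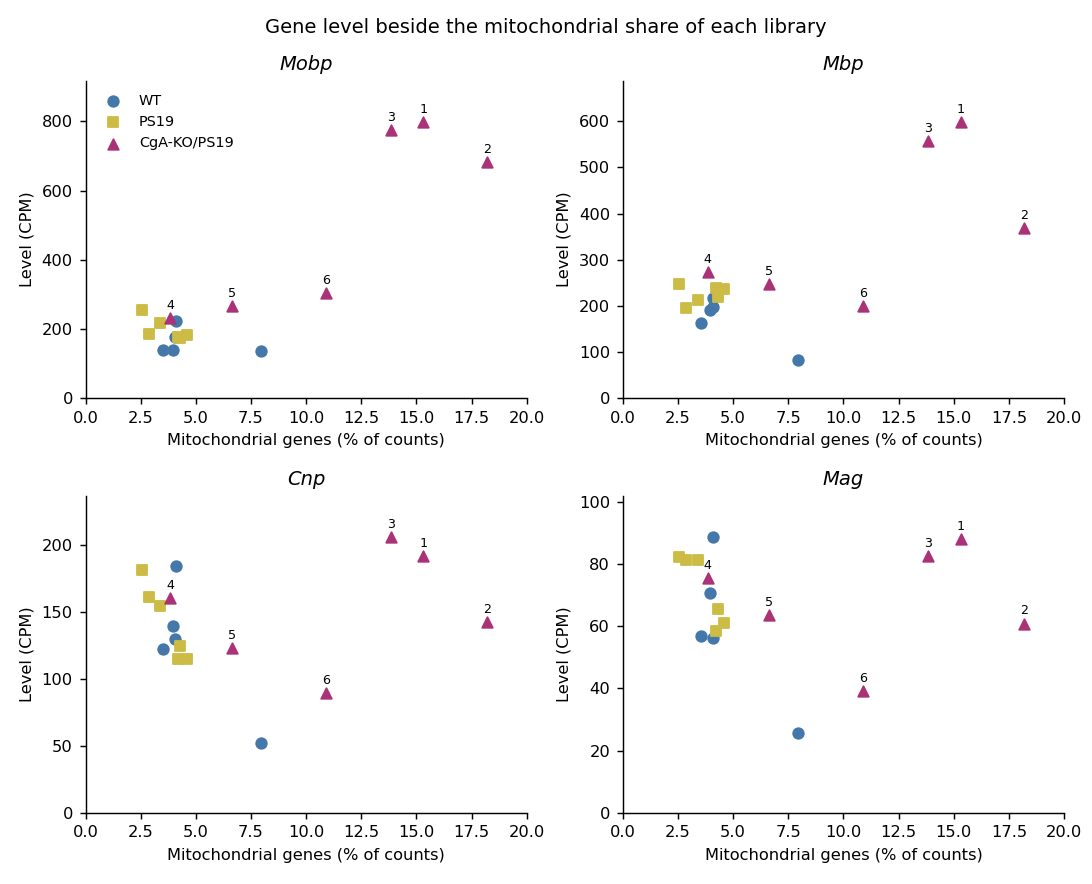
Level of Mobp, Mbp, Cnp and Mag (CPM) against the share of counts in mitochondrial genes (%) in each library, with replicate numbers for CgA-KO/PS19. The 3 libraries at 13.8% to 18.2% held the highest Mobp and Mbp levels, and their Cnp and Mag levels lay within or close to the range of the other libraries.

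Ratios between the genes show which of them moved apart within a library. The ratio of Mag to Cnp ranged from 0.434 to 0.506 in WT, from 0.454 to 0.532 in PS19 and from 0.401 to 0.515 in CgA-KO/PS19, and its log2 SD over the 17 libraries, 0.121, was the smallest of all pairs of the 9 genes. Cldn11 and Mog came next, with a log2 SD of 0.165 and a ratio of 2.34 to 3.42 over all libraries, followed by Olig2 and Pdgfra with 0.194. The 6 widest pairs all contained Mobp, from 0.659 with Cldn11 to 0.857 with Pdgfra. The ratio of Mobp to Cnp was 1.14, 1.36, 1.21, 2.59 and 0.998 in WT and 1.14 to 1.59 in PS19. In CgA-KO/PS19 it was 4.15, 4.79, 3.77, 1.45, 2.17 and 3.40. WT replicate 4, the WT library with the highest mitochondrial share, and CgA-KO/PS19 replicate 6 thus had high ratios with Mobp levels of 135.4 and 304.1 CPM and low Cnp. The ratio of Mobp to Cldn11, 2 genes of nearer GC content (53.3% and 50.9%), was 2.05 to 2.603 in WT, 2.43 to 3.28 in PS19 and 9.57, 7.46, 8.52, 2.99, 3.65 and 4.01 in CgA-KO/PS19. It put replicates 1 to 3 apart from all others and replicates 5 and 6 above every WT and PS19 library. The ratio of Mbp to Cnp ranged from 1.17 to 1.59 in WT, from 1.21 to 2.08 in PS19 and from 1.70 to 3.11 in CgA-KO/PS19.

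Over the 17 libraries, the 10 genes whose log2 level was most like the mean of the 6 sheath genes, among 11795 genes with a mean of at least 5 CPM, were Trf (Pearson r = 0.937), Litaf (0.921), Opalin (0.918), Nat8f4 (0.917), Gltp (0.909), Wipi1 (0.908), Prr5l (0.906), Tmbim1 (0.902), Dock5 (0.902) and Acaa1a (0.902). Trf, the iron carrier transferrin, and Opalin, a membrane protein of the sheath, are markers of mature oligodendrocytes. The points share libraries, depth and base composition, and the values are descriptions. The 5 genes most like Pdgfra were Erlin2 (0.880), Arrdc4 (0.861), Cyp2s1 (0.851), Amz1 (0.841) and Dars (0.816). Those most like Mobp alone, a list added after the values were seen, were Etnppl (0.960), Ddah1 (0.953), Pon2 (0.948), Rbm7 (0.944) and Gatm (0.939), none of them among the 10 nearest to the mean of the sheath genes. Of these 5, Etnppl, an enzyme gene of astrocytes, had a log2 fold change of 2.33 in CgA-KO/PS19 against PS19 (edgeR FDR = 0.00426).

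The wider set of the lineage was 130 genes in 7 lists, of which 129 were tested. In CgA-KO/PS19 against PS19, 15 rose and 4 fell, 14.7% of the lists against the 9.72% of all genes. Against WT, 8 rose and 4 fell in CgA-KO/PS19 (9.3% of the lists). In WT against PS19, 9 were higher and 4 lower in WT (10.1%). The median log2 fold change of the lists together was 0.17, 0.09 and 0.04 in that order. The summed striatal markers of WT and PS19 do not overlap, and their part in the calls of the lists was not tested. Without CgA-KO/PS19 replicates 1 to 3, 3 list genes were called against PS19 in place of 19: Tmem163, Serpina3n and Il33. Calls over all genes tested fell too, from 2242 of 23062 to 346 of 23618.

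Of 31 genes of mature oligodendrocytes and myelin, 5 rose and 0 fell in CgA-KO/PS19 against PS19, with a median log2 fold change of 0.29 over the list. Mal, a lipid raft protein of the sheath, went from 97.9 ± 22.8 CPM (SD, n = 6) in PS19 to 150.4 ± 26.1 CPM (n = 6) in CgA-KO/PS19 (log2 fold change 0.62, SE 0.16, edgeR FDR = 0.0233). Ermn, a cytoskeletal protein of the sheath, rose by a log2 fold change of 0.68 (SE 0.18, FDR = 0.0250), Gjc3, a connexin, by 0.70 (SE 0.16, FDR = 0.0139), Nkain2 by 0.29 (SE 0.08, FDR = 0.0255) and Plekhb1, named here after its value was seen, by 0.70 (SE 0.21, FDR = 0.0458). In the same comparison without CgA-KO/PS19 replicates 1 to 3, the log2 fold changes were 0.38 for Mal, 0.36 for Ermn, 0.32 for Gjc3, 0.57 for Plekhb1 and 0.24 for Nkain2, none of them called (edgeR FDR of 0.190 to 0.287). In WT against PS19, Nkain2 was higher in WT (0.55, SE 0.08, FDR = 0.00079) and Septin4 lower (-0.53, SE 0.10, FDR = 0.00354). Septin4 was also, in CgA-KO/PS19 against WT, the 1 gene of the list called (0.46, SE 0.10, FDR = 0.0115).

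Of 12 genes for myelin lipid synthesis, 0 were called in any comparison by edgeR, and 1, 1 and 2 had an unadjusted p under 0.05 in WT against PS19, in CgA-KO/PS19 against PS19 and in CgA-KO/PS19 against WT. Their smallest p-values were those of Smpd3 (log2 fold change 0.64, edgeR FDR = 0.171) and Scd2 (-0.71, FDR = 0.367) in WT against PS19, of Fads2 (0.54, FDR = 0.0621) and Elovl7 (0.23, FDR = 0.188) in CgA-KO/PS19 against PS19, and of Fads2 (0.55, FDR = 0.0912) and Sptlc2 (-0.25, FDR = 0.0971) in CgA-KO/PS19 against WT.

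Of the 17 tested genes in the list of lineage transcription factors, which also holds Carns1, 2 rose in CgA-KO/PS19 against PS19. Of all genes tested, 9.72% were called there in either direction. Id4, an inhibitor of differentiation, was at 53.9 ± 5.59 CPM (SD, n = 6) in PS19, 100.9 ± 38.5 CPM (n = 6) in CgA-KO/PS19 and 111.7 ± 27.2 CPM (n = 5) in WT (log2 fold change against PS19 0.91, SE 0.21, edgeR FDR = 0.0166 in CgA-KO/PS19 and 1.05, SE 0.22, FDR = 0.00879 in WT). St18 had a log2 fold change of 0.77 (SE 0.23, FDR = 0.0393) in CgA-KO/PS19 against PS19. Without CgA-KO/PS19 replicates 1 to 3, that comparison gave 0.30 for Id4 (edgeR FDR = 0.348) and 0.45 for St18 (FDR = 0.378). In CgA-KO/PS19 against WT, Id4 was then called lower (-0.74, SE 0.18, edgeR FDR = 0.0317). Id2 was lower in WT against PS19 (-0.52, edgeR FDR = 0.00839) and higher in CgA-KO/PS19 against WT (0.39, FDR = 0.0417). Sox10 and Myrf, which switch on the sheath genes and were singled out after their values were seen, were not called in any comparison. Sox10 had a log2 fold change of 0.19 (SE 0.17, edgeR FDR = 0.473) and Myrf of 0.24 (SE 0.18, FDR = 0.394) in CgA-KO/PS19 against PS19.

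Among 17 progenitor genes, Tmem100 (log2 fold change 1.01, SE 0.20, edgeR FDR = 0.0077) and Lhfpl3 (0.54, SE 0.14, FDR = 0.0232) rose in CgA-KO/PS19 against PS19, and the list had a median log2 fold change of 0.01. Without CgA-KO/PS19 replicates 1 to 3 the values were 0.56 (edgeR FDR = 0.174) and 0.34 (FDR = 0.245). Tmem100 also rose against WT (0.84, FDR = 0.0285), where Epn2 fell (-0.33, FDR = 0.0311). In WT against PS19, Lhfpl3 (0.86, FDR = 0.0019), Cacng4 (1.42, FDR = 0.00778) and Epn2 (0.34, FDR = 0.0288) were higher and Cspg5 lower (-0.30, FDR = 0.0296). Cspg4, the proteoglycan that marks progenitors beside Pdgfra and was singled out after its values were seen, was at 15.3 to 16.1 CPM in PS19 and 7.80 to 14.9 CPM in CgA-KO/PS19, without overlap, but the difference was not called (log2 fold change -0.37, SE 0.17, edgeR FDR = 0.167). Neither Pdgfra nor Cspg4 was called in any comparison.

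Of 15 genes of newly formed oligodendrocytes, 3 rose and 1 fell in CgA-KO/PS19 against PS19. Bcas1, a marker of cells that are starting to myelinate, was at 25.5 to 41.5 CPM (median 30.4) in PS19 and 22.5 to 92.2 CPM (median 71.3) in CgA-KO/PS19 (log2 fold change 1.01, SE 0.28, edgeR FDR = 0.0308), and it rose against WT as well (1.10, SE 0.30, FDR = 0.0338). Without CgA-KO/PS19 replicates 1 to 3 it was at 0.42 (FDR = 0.449) and 0.52 (FDR = 0.400). Tmem163 (0.82, FDR = 0.00372) and Cnksr3 (0.52, FDR = 0.0129) rose and Rras2 fell (-0.34, FDR = 0.0494) against PS19. Tmem163 was the 1 of these 3 higher genes still called without replicates 1 to 3 (0.86, edgeR FDR = 0.0260), and it was higher in WT against PS19 as well (0.92, FDR = 0.00151). Cnksr3 (0.43, FDR = 0.0474) rose and Mycl (-0.80, FDR = 0.0451) fell in CgA-KO/PS19 against WT. Casr, at 0 to 5.09 CPM in WT, 0 to 0.224 CPM in PS19 and 0 to 0.231 CPM in CgA-KO/PS19, was called in both comparisons with WT (edgeR FDR = 0.0250 and 0.0499) with at least 1 library at 0 in each genotype.

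Among 31 ligands and receptors that act on the lineage, Lpar1, a lysophosphatidic acid receptor of oligodendrocytes, was at 19.1 to 22.01 CPM in PS19 and 22.3 to 39.0 CPM in CgA-KO/PS19, without overlap (log2 fold change 0.64, SE 0.15, edgeR FDR = 0.0187), and rose against WT (0.66, SE 0.16, FDR = 0.0236). Against PS19 it was at 0.27 without CgA-KO/PS19 replicates 1 to 3 (edgeR FDR = 0.344). Jag2, a Notch ligand (-0.50, FDR = 0.0157), Rtn4r, the receptor through which myelin proteins including Mag inhibit neurite growth (-0.80, FDR = 0.0406), and Chrm3, a muscarinic receptor (-0.66, FDR = 0.0489), fell against PS19. Chrm3 was lower (-0.79, FDR = 0.0396) and Dll1, another Notch ligand, higher (0.98, FDR = 0.0272) in WT against PS19, and Dll1 fell in CgA-KO/PS19 against WT (-0.95, FDR = 0.0309).

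Of 6 genes that mark oligodendrocytes under stress, and that other glia express as well, 2 rose in CgA-KO/PS19. Serpina3n was at 7.80 to 20.4 CPM in PS19, 7.98 to 15.8 CPM in WT and 76.8 to 92.6 CPM in CgA-KO/PS19, a log2 fold change of 2.56 against PS19 (SE 0.20, edgeR FDR = 6.42e-07) that stood at 2.604 without CgA-KO/PS19 replicates 1 to 3 (FDR = 5.07e-05). Il33 was at 28.5 to 36.0 CPM in PS19, 28.0 to 41.2 CPM in WT and 42.3 to 83.9 CPM in CgA-KO/PS19 (0.92, SE 0.15, FDR = 0.0022, and 0.57, FDR = 0.0415, without those replicates). Both were above every PS19 and WT library in all 6 CgA-KO/PS19 libraries, which are the libraries without Chga. The positions of both genes relative to Chga were not examined. The part of DNA carried along with the knockout was not tested. In WT against PS19 no gene of the list was called, with H2-D1 (-0.59, edgeR FDR = 0.209) and Serpina3n (-0.24, FDR = 0.519) at the smallest p-values. H2-D1 and H2-K1 are close copies of each other, so their counts are uncertain.

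**Figure D5:**
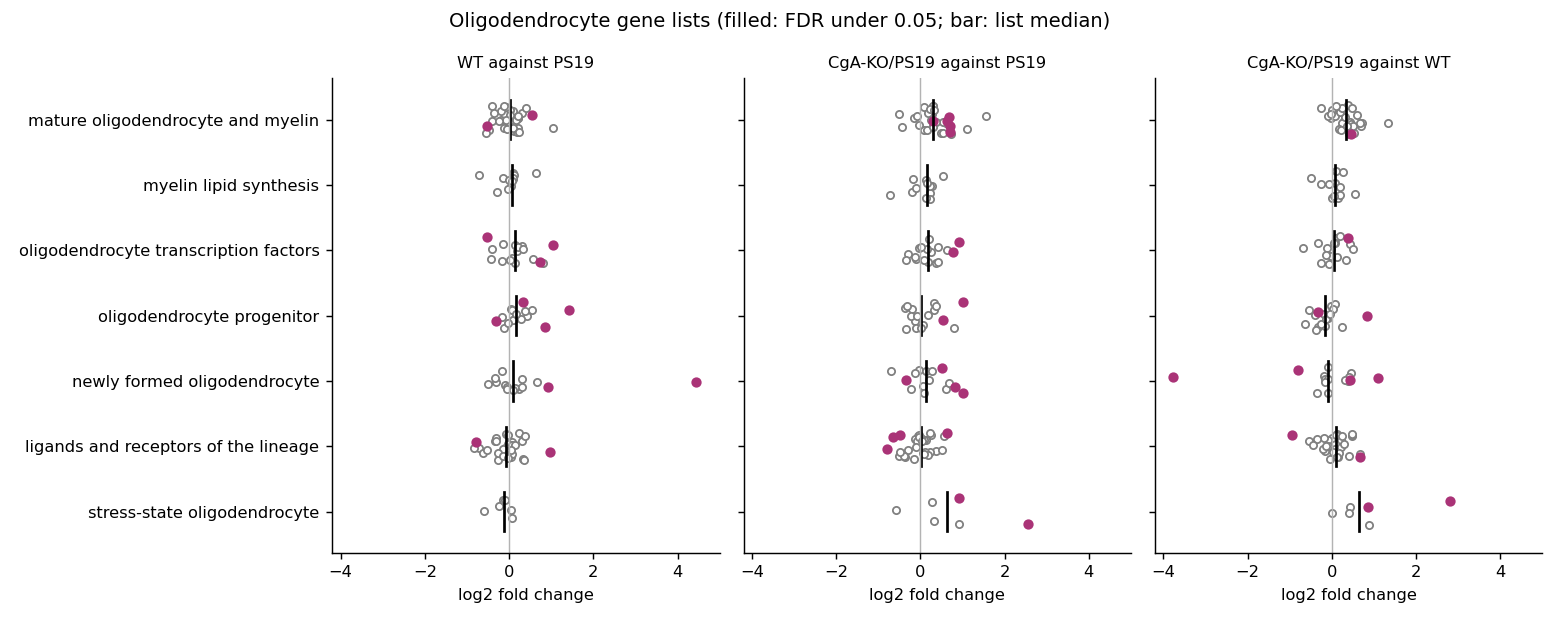
Log2 fold change of each tested gene of the 7 oligodendrocyte lists in the 3 comparisons, filled for an edgeR FDR under 0.05, with the list median as a bar. In CgA-KO/PS19 against PS19 the median of mature oligodendrocyte genes was 0.29 and that of progenitor genes 0.01.

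Markers of other cells moved with the libraries as follows. Of 10 microglial, 8 endothelial, 8 pericyte and smooth muscle and 6 tested Schwann cell markers, 0 were called in any comparison by edgeR, and at most 2 of a list had an unadjusted p under 0.05 in a comparison. The pericyte and smooth muscle list summed to 131 to 180.1 CPM in WT and PS19, 227.5 to 230.6 CPM in CgA-KO/PS19 replicates 1 to 3 and 146 to 161 CPM in replicates 4 to 6, so that its sum was highest in the libraries highest in Mobp and Mbp. The microglial list summed to 257 to 283 CPM in WT, 243 to 302 CPM in PS19 and 170 to 302 CPM in CgA-KO/PS19. The endothelial list summed to 163 to 213 CPM, 170 to 237 CPM and 187 to 256 CPM in the same order. The Schwann cell list, which covers the myelin of peripheral nerve, summed to 105 to 146 CPM in WT, 134 to 168 CPM in PS19 and 94.8 to 220 CPM in CgA-KO/PS19, with Pmp2 at 0 in all libraries, and was lowest in CgA-KO/PS19 replicates 1 and 3, where Mobp and Mbp were highest. Of 10 astrocyte markers, 2 rose in CgA-KO/PS19 against PS19, 2 rose against WT and 2 were lower in WT than in PS19. Their sum was 1323 to 3898 CPM in WT, 1490 to 5511 CPM in PS19 and 6368, 4684, 7107, 3721, 1598 and 1562 CPM in CgA-KO/PS19. The 10 neuronal markers summed to 9939 to 14986 CPM in WT, 12786 to 14413 CPM in PS19 and 10477 to 17482 CPM in CgA-KO/PS19. Of these 10, only genes of inhibitory neurons were called: Gad1 was lower in CgA-KO/PS19 against both genotypes, and Gad2 was higher in WT than in either. Of 15 striatal markers, 14 were higher in WT than in PS19, 10 rose in CgA-KO/PS19 against PS19 and 1 fell against WT. Of 8 choroid plexus markers, 5 were higher in WT than in PS19, 1 rose in CgA-KO/PS19 against PS19 and 4 fell against WT, and WT replicate 5 held a sum of 1122 CPM against 4.46 to 20.3 CPM in the other 16 libraries. Of 10 fibroblast and meningeal markers, 1, Dcn, was higher in WT than in PS19 and in CgA-KO/PS19. Pdgfrb (pericyte list) and Fgfr3 (astrocyte list) are also in the list of ligands and receptors. The part of these cells in the levels of the myelin genes was not tested.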

How the data were processed

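PolyA RNA of the prefrontal cortex was sequenced in 17 libraries. Per the labels and the study's Methods, the authors trimmed reads with Trimmomatic 0.39, aligned them to mm10 with STAR 2.7.10b and quantified genes with StringTie 1.3.6, and deposited raw counts per gene, without normalization or pooling. The annotation release and the strand setting are not given in the sources used here. Groups follow the sample labels. Counts were fitted over all 17 libraries with edgeR 4.0.16 (R 4.3.3) by the quasi-likelihood test, with TMM scaling, filterByExpr by genotype and Benjamini-Hochberg adjustment over 23062 genes in each of 3 comparisons, called at an FDR under 0.05. Alternatives used DESeq2 1.42.0, limma 3.58.1 (voom), other filters, covariates and sets of libraries, and the edgeR fit was tested on simulated data. Striatal and other marker lists are in CPM sums. Gene positions are from GENCODE M21 (52029 of 56953 IDs matched, without version) and promoters from RefSeq on GRCm38.p6. Likeness used Pearson's r of log2(CPM + 1). The members and lists were chosen with earlier results of these data known. Named list genes are, per list and comparison, up to 4 called genes of smallest p, or 2 where none was called, with exceptions marked. The covariates for mitochondrial share and Ddx3y, the correction for GC content, the interaction and the sets of libraries left out together were added after the data were seen. Some genes counted in the lists are not reported here by name.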

Additional observations from a re-analysis of the deposited data

Results flagged for a closer look

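Pdgfra in PS19 replicate 1, at 41.1 CPM, lay far below the other 5 PS19 libraries, at 47.4 to 50.4 CPM, by Dixon's test for the lowest of 6 values. With 27 groups of values tested (9 genes in 3 genotypes), chance alone flags about 1 in 20. The log2 fold change of Pdgfra stayed between 0.01 and 0.10 in CgA-KO/PS19 against PS19 with each library left out in turn.

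The effect of genotype differed between libraries with and without Ddx3y counts in 3 tests of the difference. For CgA-KO/PS19 against PS19 the log2 fold change was larger by 1.18 for Mobp (SE 0.22, edgeR interaction FDR = 0.00413) and by 1.16 for Mbp (SE 0.35, FDR = 0.0428) with Ddx3y counts. For CgA-KO/PS19 against WT it was larger by 1.10 for Mobp (SE 0.23, FDR = 0.0153). In this interaction, 2687 of all genes were called against PS19 and 1262 against WT, and 13 for WT against PS19. CgA-KO/PS19 replicates 1 to 3, the libraries with Ddx3y counts, also held the highest mitochondrial shares of the genotype, 13.8% to 18.2%, so these cannot be told apart. The near-identical libraries entered these tests as separate libraries, and the tests were not repeated with them averaged.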

How the results depend on the processing

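The lone call in CgA-KO/PS19 against PS19, Mobp, and the 2 in CgA-KO/PS19 against WT, Mobp and Mbp, kept their direction under every alternative. WT against PS19 had 0 calls under all but the striatal covariate. Each of the 9 genes had at least 126 counts in every library, and the cause of the changes below was not tested.

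The number of genes called in CgA-KO/PS19 against PS19, 1 in the main analysis, was 2 under DESeq2, under a minimum of 10 counts in every library, under correction for GC content and transcript length, among libraries with Ddx3y counts alone and without WT replicate 4 and CgA-KO/PS19 replicate 6, each time with Mbp added. It was 3 under limma voom, with Mbp and Cldn11 added (Cldn11 0.45, FDR = 0.0408), and it was 0 with the striatal covariate (Mobp 0.66, edgeR FDR = 0.0513), with near-identical libraries averaged (1.12, FDR = 0.117), with the mitochondrial share as a covariate (0.41), among libraries without Ddx3y counts (0.58, FDR = 0.0719) and without CgA-KO/PS19 replicates 1 to 3 (0.43, FDR = 0.201). With 1 library left out at a time it was 1 to 2. In CgA-KO/PS19 against WT it was 2 in the main analysis, 1 with only those 2 genotypes in the fit, with near-identical libraries averaged, among libraries without Ddx3y counts and without CgA-KO/PS19 replicates 1 to 3, 0 with the mitochondrial share and 4 with the striatal covariate, with Cnp (0.74, edgeR FDR = 0.0475) and Mog (0.79, FDR = 0.00636) added, under which WT against PS19 had 6. The oligodendrocyte lists had 3 calls in place of 19 in CgA-KO/PS19 against PS19 without those 3 libraries. Over all genes tested there were 346 calls of 23618 in place of 2242 of 23062.

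With the replicate block, 0, 1 and 2 of the 9 genes were called in WT against PS19, CgA-KO/PS19 against PS19 (Mobp 1.22, edgeR FDR = 0.0187) and CgA-KO/PS19 against WT, as without it. Same-numbered libraries deviated together with correlations of -0.23 to 0.44. Libraries of different numbers were not compared in this way, so whether the numbers pair the mice was not settled. Over all genes, the block gave 660, 654 and 614 calls against 1361, 2242 and 1489 in the 3 comparisons, DESeq2 2396, 3958 and 2564, limma voom 3967, 5229 and 2458, averaging 430, 156 and 577, the striatal covariate 3875, 1329 and 5049, and the mitochondrial share 1514, 75 and 253. The fits of 2 genotypes gave 2275, 2869 and 266. DESeq2 moved the median log2 fold change of all genes in CgA-KO/PS19 against PS19 from 0.03 to 0.13.

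Under some alternatives, differences not called in the main analysis had the opposite sign, not called there either, with the log2 fold changes that follow. The 2 GC-poor libraries are WT replicate 4 and CgA-KO/PS19 replicate 6. For WT against PS19, Olig2 was at 0.0049 (DESeq2), 0.0017 (DESeq2 size factors), 0.0098 (minimum of 10 counts), 0.0027 (2 genotypes), 0.058 (voom), 0.020 (averaged), 0.13 (GC), 0.060 (with Ddx3y) and 0.096 (without the 2 GC-poor libraries). Cnp was at 0.046 (voom) and 0.017 (without the 2 GC-poor libraries). Cldn11 was at 0.17 (voom), 0.11 (without Ddx3y) and 0.035 (without the 2 GC-poor libraries). Mog was at 0.052 (voom). Pdgfra was at -0.079 (striatal covariate). For CgA-KO/PS19 against PS19, Olig2 was at 0.019 (DESeq2), 0.024 (DESeq2 size factors), 0.060 (minimum of 10 counts), 0.0093 (2 genotypes), 0.017 (voom), 0.0088 (mitochondrial share), 0.19 (GC), 0.20 (with Ddx3y) and 0.037 (without the 2 GC-poor libraries). Pdgfra was at -0.0023 (no filter), -0.056 (striatal covariate) and -0.037 (without Ddx3y). Olig1 was at 0.0035 (minimum of 10 counts), 0.042 (mitochondrial share), 0.13 (GC), 0.22 (with Ddx3y) and 0.055 (without the 2 GC-poor libraries). Mag was at 0.056 (voom), 0.29 (mitochondrial share), 0.091 (GC) and 0.042 (without the 2 GC-poor libraries). Cnp was at -0.28 (striatal covariate), -0.091 (averaged) and -0.20 (without CgA-KO/PS19 replicates 1 to 3). Mog was at -0.057 (striatal covariate) and -0.037 (without CgA-KO/PS19 replicates 1 to 3). For CgA-KO/PS19 against WT, Olig2 was at -0.031 (no filter), -0.041 (voom), -0.052 (averaged), -0.13 (without Ddx3y), -0.15 (without CgA-KO/PS19 replicates 1 to 3) and -0.059 (without the 2 GC-poor libraries). Pdgfra was at 0.023 (striatal covariate). Cnp was at -0.020 (without CgA-KO/PS19 replicates 1 to 3). Mag was at -0.012 (without CgA-KO/PS19 replicates 1 to 3). Olig1 was at -0.080 (without CgA-KO/PS19 replicates 1 to 3). With 1 library left out at a time, the range crossed 0 in WT against PS19 for Cldn11 (-0.15 to 0.068), Olig2 (-0.11 to 0.10) and Cnp (-0.35 to 0.023). With 1 library left out at a time, the range crossed 0 in CgA-KO/PS19 against PS19 for Olig2 (-0.065 to 0.046), Mag (-0.15 to 0.050) and Olig1 (-0.18 to 0.065). With 1 library left out at a time, the range crossed 0 in CgA-KO/PS19 against WT for Olig2 (-0.11 to 0.11).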
